A study of Mus musculus with 24 samples.

Results

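A set of 10 genes that restrain MAP kinase signalling was followed, namely the dual-specificity phosphatases Dusp1, Dusp2, Dusp4, Dusp5, Dusp6 and Dusp10, the Sprouty genes Spry1 and Spry2 and the Spred genes Spred1 and Spred2. They were chosen by symbol, and all 10 were found among the 24421 genes counted in each library. RNA was sequenced from bone marrow CLPs (common lymphoid progenitors, sorted as Lin-IL-7R+) and from B cell progenitors (sorted as B220+IgM-IL-7R+) of 4 genotypes, with 3 mice per genotype and 1 library of each population per mouse, 24 libraries in all. The genotypes were Plcg1+/+Plcg2+/+ (WT), Plcg1-/-Plcg2+/+ (here Plcg1-/-), Plcg1+/+Plcg2-/- (here Plcg2-/-) and Plcg1-/-Plcg2-/- (here double-deficient). Plcg2 was missing from the germ line, whereas Plcg1 was floxed and deleted by MxCre, a Cre under the interferon-inducible Mx promoter. Donors of every genotype, WT included, carried MxCre and a Rosa-YFP reporter and were treated with poly(I-C), and their marrow was transplanted into lethally irradiated wild-type recipients, from which the donor-derived cells were sorted. How many donors gave marrow for a genotype is not given in the sources used here, so p-values measure the spread between recipients.

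PLCγ1 and PLCγ2, the products of Plcg1 and Plcg2, cleave a membrane lipid into inositol trisphosphate and diacylglycerol, and diacylglycerol switches on Ras through RasGRP proteins and with it the ERK kinases. Many inhibitors of that pathway are themselves induced by it, so their transcripts are widely read as a record of recent signalling. Dusp5 (nuclear) and Dusp6 (cytosolic) remove phosphate from ERK with high selectivity. Dusp1, Dusp2 and Dusp4 are nuclear phosphatases that act on more than a single MAP kinase, and Dusp10 prefers p38 and JNK to ERK, so it is not an ERK inhibitor in the strict sense. Sprouty proteins block signalling between receptor tyrosine kinases and Ras, and Spred proteins bring the Ras inhibitor neurofibromin to the membrane.

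The 10 genes are scattered over the genome. In RefSeq on GRCm38.p6 they lie at chr17:26505591-26508472 (Dusp1, minus strand), chr2:127336159-127338377 (Dusp2), chr8:34807610-34819894 (Dusp4), chr19:53529145-53541809 (Dusp5), chr10:99263231-99267489 (Dusp6), chr1:184034381-184075636 (Dusp10), chr3:37639947-37644599 (Spry1), chr14:105891947-105896819 (Spry2, minus strand), chr2:117121071-117182279 (Spred1) and chr11:19924442-20024026 (Spred2). In the GENCODE annotation of the same genome, exons of Dusp1, Dusp5 and Spry1 overlap exons of a gene on the opposite strand (Ergic1, AC137853.2 and Gm42922, in that order). The library kit named in the labels does not mark strand, so reads in those overlaps cannot be told apart.

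The CLP libraries held 4232345 to 33219995 reads on genes and those of B cell progenitors 1479582 to 25057223. A further 17.9% to 45.2% of the reads of CLPs and 59.9% to 87.3% of those of B cell progenitors fell outside genes, without overlap. Levels are given as CPM, the reads of a gene relative to all reads on genes of its library, scaled by edgeR's TMM method over all 24 libraries. A single read was worth 0.0301 to 0.676 CPM. Plcg2 lay at 72.1 to 138 CPM in the 12 libraries labelled Plcg2-/- and at 183 to 282 CPM in the other 12. Plcg1 lay at 56.1 to 185 CPM in libraries labelled Plcg1-/- and at 77.4 to 113 CPM in the others, and a count over the whole gene does not check the deletion of a part of it. Xist, expressed from the inactive X chromosome, lay at 1294 to 2314 CPM in all 12 libraries labelled Plcg1-/- and at 23.6 to 743 CPM in the other 12, so sex and Plcg1 genotype cannot be told apart. Plcg2-/- against WT and double-deficient against Plcg1-/- are the comparisons within either level of Xist.

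The label CLP was checked against Flt3, the receptor that marks multipotent and common lymphoid progenitors. Flt3 was high in 4 of the 12 CLP libraries only, 1 of each genotype (WT number 1 and number 2 of Plcg1-/-, Plcg2-/- and double-deficient), at 196 to 735 CPM. In the other 8 CLP libraries it lay at 25.8 to 115 CPM, close to the range of B cell progenitors (28.4 to 111 CPM). A chi-square of read counts over genes, per degree of freedom, set the CLP and the B cell progenitor library of a mouse apart by 96.0 to 119 in those 4 mice and by 7.97 to 32.7 in the other 8. Depth also differed between libraries, and its part in these values was not tested. Pairs of B cell progenitor libraries of one genotype differed by 8.28 to 38.3. Differences between double-deficient and WT CLPs are therefore given with all 12 libraries and also without those 4. Granulocyte and monocyte genes were present in every library, with a summed level of 3123 to 12743 CPM in CLPs and 1968 to 11332 CPM in B cell progenitors, and none of the 14 was at 0 throughout. In bulk RNA, fewer cells of a type and less RNA per cell cannot be told apart.

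The phosphatases Dusp1, Dusp2 and Dusp6 were the most abundant of the 10 genes in both populations. Per kilobase of exon (RPKM, from the CPM and the union of annotated exons), the medians over 12 libraries were highest for Dusp1 (149.7, range 42.4 to 502), Dusp2 (142, 60.0 to 267) and Dusp6 (64.3, 36.7 to 109) in CLPs. In B cell progenitors they were highest for Dusp2 (190.2, 48.1 to 298), Dusp6 (88.0, 32.2 to 135) and Dusp1 (60.9, 20.95 to 182). Dusp5 came next, with a median RPKM of 28.9 in CLPs and 13.8 in B cell progenitors, followed by Spry2 with 14.5 and 10.5. Spry1, Spred1, Spred2 and Dusp10 had medians of 4.10 to 6.88 RPKM in CLPs and 4.63 to 7.20 RPKM in B cell progenitors, and Dusp4 was lowest with 2.04 and 1.38 RPKM. The ranges of each gene and its neighbours in this order overlapped, whereas those of Dusp1, Dusp2 and Dusp6 lay wholly above those of Spry1, Spred1, Spred2, Dusp10 and Dusp4. The order of the medians was the same with the length of the longest transcript.

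**Figure D1:**
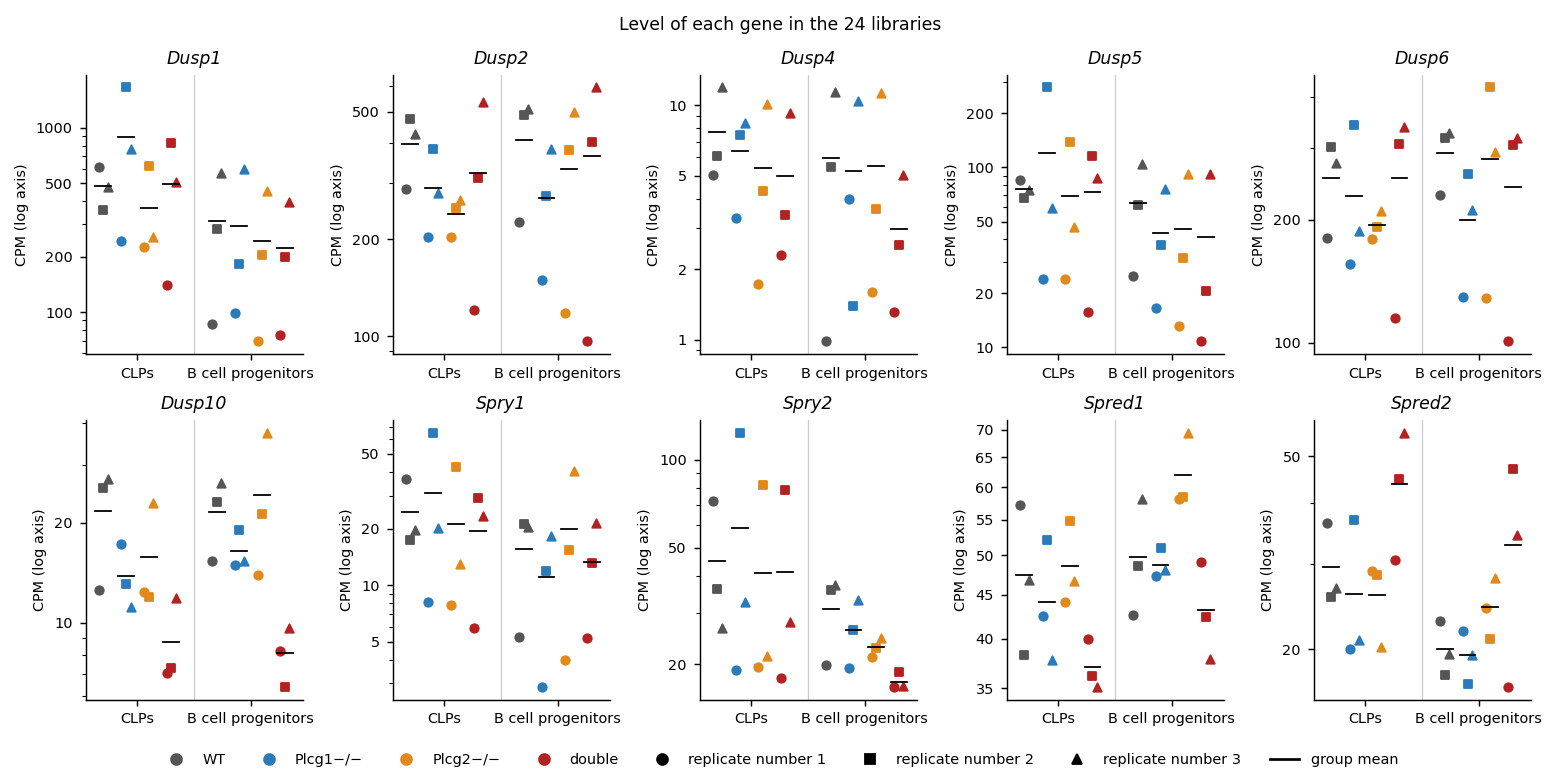
CPM (log axis) of each gene in the 24 libraries, with CLPs on the left and B cell progenitors on the right of each panel, colours for the genotypes, marker shapes for the replicate numbers and bars for the group means (n = 3). In B cell progenitors, Dusp1 lay at 69.4 to 98.4 CPM in the libraries numbered 1 and at 397 to 602 CPM in those numbered 3, whichever the genotype, and Dusp10 was lowest in the double-deficient libraries.

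In B cell progenitors the libraries numbered 1 were the lowest of each of the 4 genotypes for Dusp1, Dusp2, Dusp5, Dusp6 and Spry1. Those numbered 3 were the highest of each genotype for Dusp1, Dusp2 and Dusp5, but not for Dusp6 or Spry1. Dusp1, an immediate early gene, lay at 86.5, 98.4, 69.4 and 75.4 CPM in the WT, Plcg1-/-, Plcg2-/- and double-deficient libraries numbered 1, at 282, 182, 205 and 198 CPM in those numbered 2 and at 569.7, 602, 457 and 397 CPM in those numbered 3. The 3 sets of 4 libraries did not overlap for Dusp1, as for 0.253% of the 15001 genes tested. Dusp5, the nuclear phosphatase specific for ERK, lay at 24.98, 16.6, 13.2 and 10.8 CPM in the WT, Plcg1-/-, Plcg2-/- and double-deficient libraries numbered 1, at 61.6, 37.01, 31.3 and 20.6 CPM in those numbered 2 and at 104, 75.9, 91.4 and 91.5 CPM in those numbered 3. The libraries numbered 1 were the lowest of each genotype and those numbered 3 the highest.

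Spry1, the Sprouty gene with the wider swing, lay at 5.31, 2.87, 3.99 and 5.24 CPM in the WT, Plcg1-/-, Plcg2-/- and double-deficient libraries numbered 1, at 21.1, 11.9, 15.3 and 13.1 CPM in those numbered 2 and at 20.5, 18.3, 40.7 and 21.5 CPM in those numbered 3. All 4 libraries numbered 1 were below the other 8, as for 1.75% of the 15001 genes. Dusp2, a phosphatase first known from activated lymphocytes, lay at 227, 149, 118 and 96.4 CPM in the WT, Plcg1-/-, Plcg2-/- and double-deficient libraries numbered 1, at 489.5, 274, 379 and 403 CPM in those numbered 2 and at 508, 383, 498 and 596 CPM in those numbered 3. Again the 4 libraries numbered 1 lay below the other 8, a pattern that Dusp1, Dusp2 and Spry1 had of the 10 genes. Dusp6 lay at 230.4, 129, 129 and 101 CPM in the WT, Plcg1-/-, Plcg2-/- and double-deficient libraries numbered 1, at 316, 259, 422 and 304 CPM in those numbered 2 and at 325, 211, 292 and 316 CPM in those numbered 3. WT number 1, at 230.4 CPM, was above Plcg1-/- number 3 and was the exception to the low values of number 1. Dusp4 was scarce, at 0.984, 3.98, 1.59 and 1.31 CPM in the WT, Plcg1-/-, Plcg2-/- and double-deficient libraries numbered 1, at 5.48, 1.39, 3.601 and 2.53 CPM in those numbered 2 and at 11.4, 10.4, 11.3 and 5.03 CPM in those numbered 3. Those numbered 3 were the highest of each genotype.

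The term for replicate number, fitted by edgeR beside the 4 genotypes, passed the adjusted threshold of 0.05 in B cell progenitors for 5 of the 10 genes, against 5.35% of the 15001 genes tested. The adjusted p was 1.75e-05 for Dusp1, 0.000281 for Dusp5, 0.00153 for Spry1, 0.00289 for Dusp2 and 0.0173 for Dusp6, by edgeR's quasi-likelihood test, adjusted by Benjamini and Hochberg. Dusp4, with an adjusted p of 0.05004, was just outside it, and Dusp10, Spry2, Spred1 and Spred2 had adjusted p-values of 0.151 to 0.954. This test was added after the pattern had been seen, and the labels do not say what mice with the same number had in common. Of 15 genes known to respond to handling and stress of cells (Fos, Jun, Atf3, Hspa1a and others), 14 passed the same test, and so did 10 of 15 ERK response genes, among them Egr1, Egr2 and Phlda1. The summed level of the handling and stress genes was 2813 to 4258 CPM in the B cell progenitor libraries numbered 1, 5014 to 8347 CPM in those numbered 2 and 8656 to 11778 CPM in those numbered 3. Granulocyte and monocyte genes did not follow the same order, with sums of 2101 to 11332, 1968 to 3695 and 6268 to 8345 CPM, and the part of any of these in the result was not tested.

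Dusp1, Dusp5 and Spry1 varied together most closely, and their promoters are shown for comparison. RefSeq promoters on GRCm38.p6 were given for 9 of the 10 genes (all but Dusp4). The 250 bases before the start were searched on both strands for the CRE (TGACGTCA), its part TGACG, the CArG box of serum response factor, the AP-1 site TGANTCA and the STAT site TTCNNNGAA, chosen with these results known. Each sequence runs 5′ to 3′ on the strand of its gene, and capitals mark a CRE or a CArG box. The windows are chr17:26508473-26508722, minus strand for Dusp1, chr19:53528895-53529144, plus strand for Dusp5, chr3:37639697-37639946, plus strand for Spry1 and chr1:184034131-184034380, plus strand for Dusp10, which is shown for its pattern across genotypes.
Dusp1: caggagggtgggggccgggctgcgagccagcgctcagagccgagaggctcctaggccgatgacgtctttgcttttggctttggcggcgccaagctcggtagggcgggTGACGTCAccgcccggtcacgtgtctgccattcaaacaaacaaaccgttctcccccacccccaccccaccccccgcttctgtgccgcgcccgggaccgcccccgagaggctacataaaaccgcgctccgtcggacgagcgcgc
Dusp5: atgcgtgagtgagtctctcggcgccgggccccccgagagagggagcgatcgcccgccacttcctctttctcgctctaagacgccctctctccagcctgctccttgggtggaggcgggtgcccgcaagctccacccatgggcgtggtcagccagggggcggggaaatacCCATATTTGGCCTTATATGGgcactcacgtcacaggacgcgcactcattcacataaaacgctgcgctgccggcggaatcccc
Spry1: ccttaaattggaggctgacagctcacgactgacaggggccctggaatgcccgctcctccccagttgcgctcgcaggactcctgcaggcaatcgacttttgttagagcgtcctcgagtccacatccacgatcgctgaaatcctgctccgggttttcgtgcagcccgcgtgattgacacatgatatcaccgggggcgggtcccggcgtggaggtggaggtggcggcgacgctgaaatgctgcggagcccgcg
Dusp10: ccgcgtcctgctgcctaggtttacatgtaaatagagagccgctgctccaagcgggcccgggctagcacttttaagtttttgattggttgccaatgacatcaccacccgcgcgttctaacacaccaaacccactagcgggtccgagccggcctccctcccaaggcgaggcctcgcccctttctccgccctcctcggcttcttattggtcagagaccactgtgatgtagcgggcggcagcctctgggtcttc
A CRE began 143 bases before the start of Dusp1 and in none of the other 8 promoters, against 1.55% of all 32851 promoters. A pair of adjacent CArG boxes began 82 and 72 bases before the start of Dusp5, against 1.47% of promoters with any, and no other member had one. The shorter TGACG, which lies in the CRE on both strands, was found in Dusp1, Dusp5 and Spred2 (17.8% of promoters), and neither the AP-1 site (6.75%) nor the STAT site (7.02%) was found in any of the 9. No capitals in the Spry1 and Dusp10 windows say only that these letters are not there.

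In CLPs the SD of log2 CPM within genotypes was 1.06 for Dusp1, 0.63 for Dusp2, 1.35 for Dusp5, 0.56 for Dusp6 and 1.18 for Spry1, against 1.32, 1.00, 1.29, 0.70 and 1.31 in B cell progenitors. Apart from WT number 1, the CLP libraries numbered 1 took the lowest ranks, 10 to 12 of 12, for each of these genes. Dusp1 lay at 614, 244, 226 and 140.3 CPM in the WT, Plcg1-/-, Plcg2-/- and double-deficient libraries numbered 1, at 359, 1663, 621 and 829.6 CPM in those numbered 2 and at 479.8, 766, 257 and 512 CPM in those numbered 3. Dusp5 lay at 85.3, 23.9, 23.9 and 15.7 CPM in the WT, Plcg1-/-, Plcg2-/- and double-deficient libraries numbered 1, at 67.7, 279, 138 and 116 CPM in those numbered 2 and at 75.4, 59.9, 46.9 and 87.1 CPM in those numbered 3. Spry1 lay at 36.9, 8.17, 7.87 and 5.91 CPM in the WT, Plcg1-/-, Plcg2-/- and double-deficient libraries numbered 1, at 17.3, 64.6, 42.7 and 29.3 CPM in those numbered 2 and at 19.7, 20.3, 12.99 and 23.2 CPM in those numbered 3. For Dusp1, Dusp5 and Spry1, Plcg1-/- number 2 was the highest CLP library and double-deficient number 1 the lowest. The 4 libraries high in Flt3 took ranks 1 to 4 of 12 for Spry1 (29.3 to 64.6 CPM against 5.91 to 23.2 CPM in the other 8). They took ranks 1, 2, 3 and 5 for Dusp5 and ranks 1, 2, 4 and 5 for Dusp1.

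Spry2, the second Sprouty gene, separated those 4 CLP libraries most widely. It lay at 72.6, 19.2, 19.53 and 17.9 CPM in the WT, Plcg1-/-, Plcg2-/- and double-deficient libraries numbered 1, at 36.3, 123, 82.3 and 78.6 CPM in those numbered 2 and at 26.5, 32.8, 21.4 and 27.9 CPM in those numbered 3. The 4 held 72.6 to 123 CPM and the other 8 held 17.9 to 36.3 CPM, whereas the B cell progenitors of the same 4 mice held 18.8 to 26.2 CPM. Both Sprouty genes were thus higher in all 4 than in all 8, as were 5.74% of the 15209 genes tested in CLPs. As the 4 were picked out by their data, no test is given. The same 4 also had the highest summed levels of the handling and stress genes of all CLP libraries. These sums were 12557 to 31581 CPM, against 3565 to 11077 CPM in the other 8. Their part in the levels of Spry1, Spry2, Dusp1 and Dusp5 was not tested.

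Dusp2 in CLPs lay at 287, 204, 204 and 120.2 CPM in the WT, Plcg1-/-, Plcg2-/- and double-deficient libraries numbered 1, at 474, 383, 251 and 310.0 CPM in those numbered 2 and at 425, 279.6, 266 and 535 CPM in those numbered 3. Dusp6 lay at 181, 156, 179 and 115 CPM in the WT, Plcg1-/-, Plcg2-/- and double-deficient libraries numbered 1, at 301, 341, 192 and 306 CPM in those numbered 2 and at 275, 188, 210.3 and 337 CPM in those numbered 3. Dusp4 lay at 5.07, 3.30, 1.72 and 2.29 CPM in the WT, Plcg1-/-, Plcg2-/- and double-deficient libraries numbered 1, at 6.09, 7.48, 4.32 and 3.39 CPM in those numbered 2 and at 11.96, 8.42, 10.1 and 9.24 CPM in those numbered 3. Neither Dusp2 nor Dusp6 was set apart in the 4 libraries high in Flt3, and Dusp4 was highest in the 4 libraries numbered 3 (as 0.605% of the 15209 genes). For Dusp6 all 4 libraries numbered 1 were below the other 8, as for 1.16% of genes. Replicate number passed the test in CLPs for Dusp4 alone of the 10 (adjusted p = 0.0412, edgeR's quasi-likelihood test), against 1.41% of 15209 genes, and for 3 of 15 handling and stress genes and 1 of 16 ERK response genes. By DESeq2's likelihood ratio test, which called 1692 of those genes, 5 of the 10 passed. The summed level of the handling and stress genes was 3565 to 12557 CPM in CLP libraries numbered 1, 8556 to 31581 CPM in those numbered 2 and 6046 to 11077 CPM in those numbered 3.

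**Figure D2:**
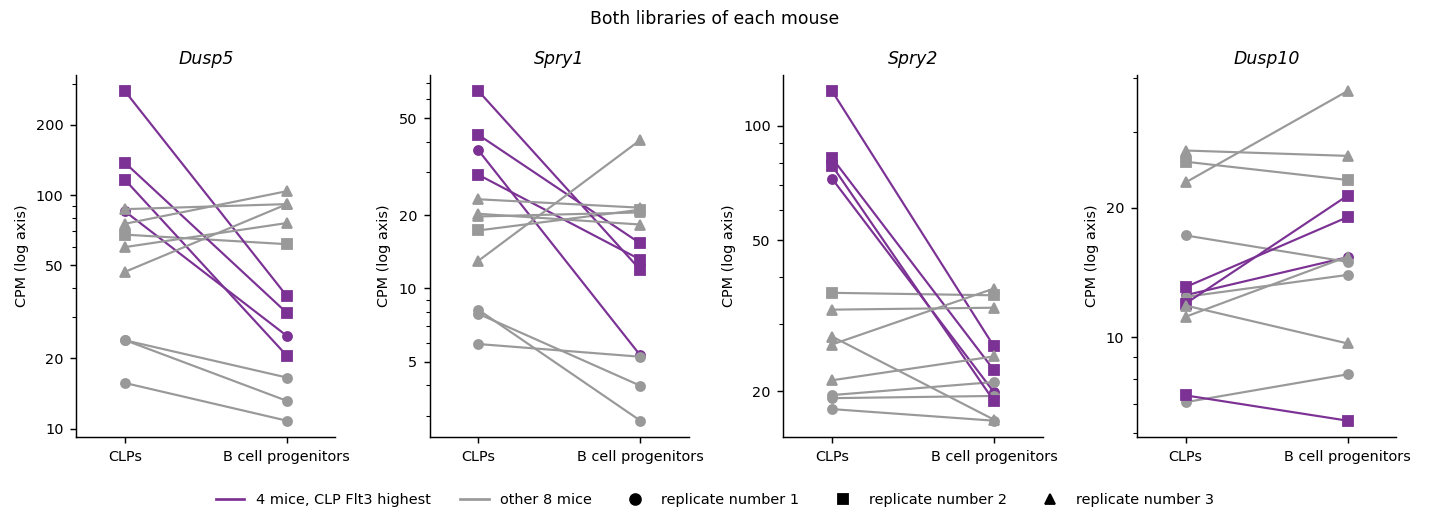
CPM (log axis) of Dusp5, Spry1, Spry2 and Dusp10 in the CLP library and the B cell progenitor library of each of the 12 mice, joined by a line. In the 4 mice whose CLP library was high in Flt3 (purple), Spry2 lay at 72.6 to 123 CPM in CLPs and at 18.8 to 26.2 CPM in B cell progenitors, while in the other 8 mice (grey) it lay at 17.9 to 36.3 CPM in CLPs.

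After the population mean was subtracted, the log2 CPM of Dusp1, Dusp2, Dusp4, Dusp5, Dusp6 and Spry1 correlated with each other over the 24 libraries, with Pearson's r of 0.48 to 0.93 in the 15 pairs (median 0.72). The closest pair was Dusp1 and Dusp5 (r = 0.93), and Dusp2 was closest to Dusp6 (r = 0.91). Dusp10 correlated with those genes at 0.20 to 0.53, and Spred1 with the other 9 members at -0.23 to 0.49. These values describe libraries that share mice, preparation and depth. The spread within genotypes in B cell progenitors (SD of log2 CPM) was 1.32 for Dusp1, 1.37 for Dusp4, 1.31 for Spry1 and 1.29 for Dusp5, against a median of 0.42 over all genes, and 0.17 for Spred1.

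**Figure D3:**
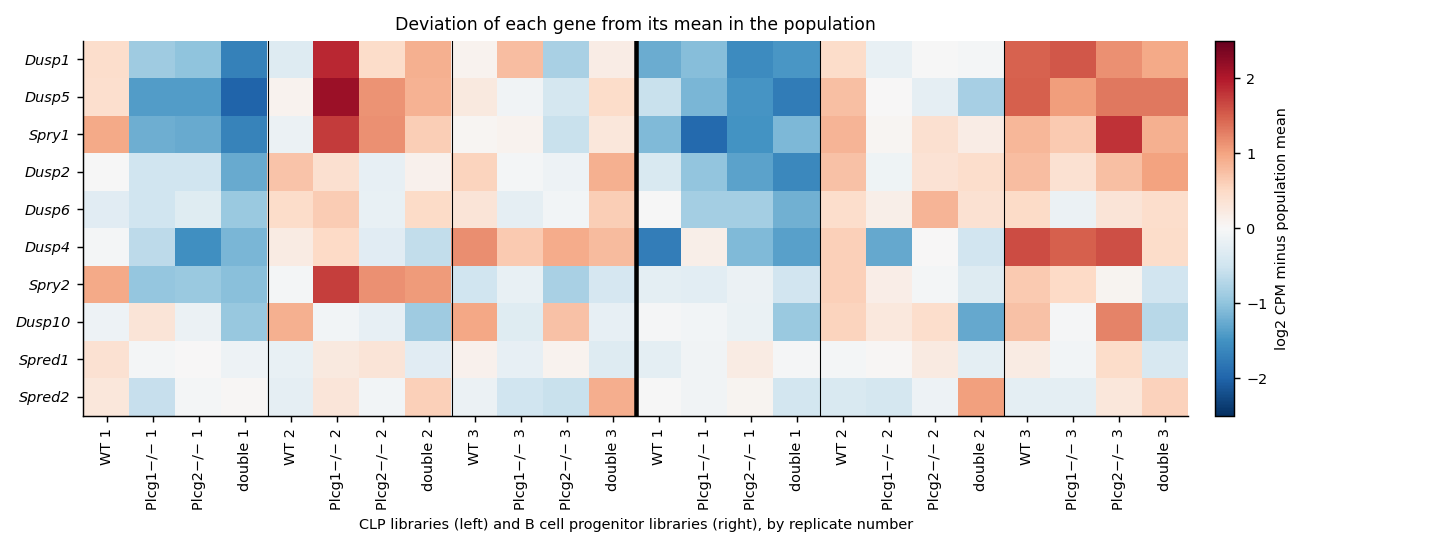
Heat map of log2 CPM minus the mean of the population, with the 10 genes in rows and the 12 CLP libraries (left) and 12 B cell progenitor libraries (right) in columns, ordered by replicate number (thin lines) and genotype. The upper 6 rows are low (blue) in most libraries numbered 1, with 69.4 to 98.4 CPM of Dusp1 in those of B cell progenitors, and the Spred1 row is nearly blank, with an SD of 0.17 within genotypes of B cell progenitors.

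Across genotypes, Dusp10 was the member with the lowest adjusted p, and it was lower in every double-deficient B cell progenitor library than in any other. In B cell progenitors it lay at 15.3, 23.2 and 26.4 CPM in the WT libraries, at 14.97, 19.01 and 15.4 CPM in the Plcg1-/- libraries, at 13.96, 21.3 and 37.4 CPM in the Plcg2-/- libraries and at 8.19, 6.39 and 9.67 CPM in the double-deficient libraries, in the order of the replicate numbers. Only 1.65% of the 15001 genes had all 3 double-deficient libraries below all 9 others, and within each replicate number the double-deficient library was the lowest of 4 (4.61% of genes). The log2 difference of double-deficient from WT was -1.44 ± 0.33 (SE, n = 3 against 3, 95% interval -2.15 to -0.72). The adjusted p was 0.0733 by edgeR's quasi-likelihood test, so the gene was not called, while it passed by DESeq2 (adjusted p = 0.00274). A call needed an adjusted p of at most 0.05 and a log2 difference of at least 0.5, which 0.893% of genes met by edgeR and 2.96% by DESeq2. With the WT and double-deficient libraries alone, or without Plcg2-/- number 1 or number 3, Dusp10 passed by edgeR as well (adjusted p = 0.0447, 0.0363 and 0.0387). These fits hold no term for replicate number, and with the number as a block edgeR gave -1.46 with an adjusted p of 0.0132, which passed.

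Against Plcg1-/-, where Xist was alike, the log2 difference of Dusp10 in double-deficient B cell progenitors was -1.06 ± 0.33 (SE, n = 3 against 3, 95% interval -1.78 to -0.34), with an adjusted p of 0.17 by edgeR and 0.0482 by DESeq2. Against Plcg2-/- it was -1.58 ± 0.34 (SE, n = 3 against 3, 95% interval -2.32 to -0.84), with an adjusted p of 0.161 by edgeR and 0.00337 by DESeq2. With the replicate block edgeR gave -1.58 against Plcg2-/- with an adjusted p of 0.0447, which passed. Both comparisons share the double-deficient libraries with the comparison against WT. Loss of Plcg1 or Plcg2 by itself gave -0.37 ± 0.31 (SE, n = 3 against 3, 95% interval -1.06 to 0.31) and 0.14 ± 0.32 (SE, n = 3 against 3, 95% interval -0.56 to 0.84), intervals that include 0. The Dusp10 values rest on 25 to 149 reads per double-deficient library and 156 to 350 reads per WT library.

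In CLPs Dusp10 lay at 12.5, 25.6 and 27.2 CPM in the WT libraries, at 17.2, 13.1 and 11.2 CPM in the Plcg1-/- libraries, at 12.4, 11.97 and 22.9 CPM in the Plcg2-/- libraries and at 7.06, 7.32 and 11.8 CPM in the double-deficient libraries. The double-deficient libraries were below all WT and all Plcg2-/- libraries (patterns of 7.32% and 7.04% of genes), and number 3 lay within the range of Plcg1-/-. The log2 difference from WT was -1.31 ± 0.36 (SE, n = 3 against 3, 95% interval -2.11 to -0.51), with an adjusted p of 0.34 by edgeR and 0.0485 by DESeq2, where 0.0921% and 1.11% of the 15209 genes were called. Without the 4 CLP libraries high in Flt3 it was -1.48 (adjusted p = 0.221, edgeR with 2 libraries per genotype, a setting chosen after seeing the data). Those 4 held 12.5, 13.1, 11.97 and 7.32 CPM in WT, Plcg1-/-, Plcg2-/- and double-deficient. The difference between populations in the double-deficient effect was -0.13 ± 0.50 on the log2 scale (SE, 95% interval -1.17 to 0.92).

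Markers of later B cell stages were also lower in double-deficient than in WT B cell progenitors. Their summed level (8 of the 10 listed genes were counted) was 1110 to 1569 CPM in double-deficient B cell progenitors and 3753 to 4540 CPM in WT, with 2195 to 4099 CPM in the single-deficient libraries. All 8 were negative in double-deficient against WT (median log2 difference -1.61, against -0.02 over all genes), and 3 fell past the threshold by edgeR's quasi-likelihood test. They were Bach2 (-2.21, adjusted p = 0.00747), a transcription factor of B cells, Il2ra (-3.40, adjusted p = 0.00818), a marker of pre-B cells, and Cd24a (-1.70, adjusted p = 0.0250). Granulocyte and monocyte genes were positive for all 14 in the same comparison, with a median log2 difference of 1.099 and none called by edgeR. So were 10 of 11 macrophage genes and 8 of 8 erythroid, mast cell and basophil genes tested (medians 0.94 and 1.00). Of the T cell, NK and innate lymphoid genes 13 of 14 were positive and of the dendritic cell genes 8 of 9 (medians 0.74 and 0.84), with none called. The summed level of the dendritic cell genes was 707 to 786 CPM in double-deficient B cell progenitors and 452 to 605 CPM in the other 9 libraries, without overlap. Of the B lineage markers 10 of 14 were positive, with a median of 0.25, and 1 (Cd22) fell past the threshold (-1.62, adjusted p = 0.00747, edgeR). Their summed level was 3066 to 12062 CPM in double-deficient libraries and 4712 to 6706 CPM in WT. CLP and multipotent progenitor markers were positive for 8 of 10, with a median of 0.83 and none called. In CLPs the summed level of the later B cell markers was 1049 to 1438 CPM in double-deficient and 880 to 3805 CPM in WT libraries. Their part in the Dusp10 result was not tested.

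Spry2 in B cell progenitors lay at 19.9, 35.8 and 37.3 CPM in the WT libraries, at 19.4, 26.2 and 33.2 CPM in the Plcg1-/- libraries, at 21.1, 22.7 and 24.7 CPM in the Plcg2-/- libraries and at 16.7, 18.8 and 16.8 CPM in the double-deficient libraries. The double-deficient libraries again lay below all 9 others, and lowest within each replicate number. The log2 difference from WT was -0.82 ± 0.25 (SE, n = 3 against 3, 95% interval -1.36 to -0.29), and the adjusted p of 0.187 by edgeR and 0.0559 by DESeq2 missed the threshold. In the fit blocked on replicate number edgeR gave -0.80 with an adjusted p of 0.0373, which passed. In CLPs, where the libraries high in Flt3 widened every group, the difference was -0.16 ± 0.79 (SE, n = 3 against 3, 95% interval -1.88 to 1.56), and it was -0.44 ± 0.32 (SE, 2 libraries against 2) without those 4.

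Spred1 was the steadiest of the 10 genes. The gene lay at 42.6, 48.5 and 58.2 CPM in the WT libraries, at 47.3, 50.96 and 48.05 CPM in the Plcg1-/- libraries, at 58.2, 58.4 and 69.4 CPM in the Plcg2-/- libraries and at 49.2, 42.4 and 37.9 CPM in the double-deficient libraries in B cell progenitors. Double-deficient differed from WT by -0.21 ± 0.15 (SE, n = 3 against 3, 95% interval -0.54 to 0.11) on the log2 scale. From Plcg2-/- it differed by -0.54 ± 0.15 (SE, n = 3 against 3, 95% interval -0.87 to -0.21), with an adjusted p of 0.328 by edgeR. In CLPs Spred1 lay at 57.2, 38.3 and 46.9 CPM in the WT libraries, at 42.5, 52.1 and 37.8 CPM in the Plcg1-/- libraries, at 44.2, 54.8 and 46.7 CPM in the Plcg2-/- libraries and at 39.97, 36.2 and 35.1 CPM in the double-deficient libraries. Double-deficient libraries were below all Plcg2-/- libraries there too, with a log2 difference of -0.40 ± 0.17 (SE, n = 3 against 3, 95% interval -0.78 to -0.03), or -0.24 without the 4 libraries high in Flt3 (7.65% of genes showed that pattern in B cell progenitors and 7.04% in CLPs). The whole range of Spred1 was 35.1 to 57.2 CPM in CLPs and 37.9 to 69.4 CPM in B cell progenitors, the narrowest of the 10 genes by the ratio of highest to lowest (1.63 and 1.83).

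Spred2 was the single member with a higher estimate in double-deficient than in WT B cell progenitors. It lay at 22.9, 17.7 and 19.53 CPM in the WT libraries, at 21.8, 16.99 and 19.49 CPM in the Plcg1-/- libraries, at 24.3, 20.97 and 28.02 CPM in the Plcg2-/- libraries and at 16.7, 47.2 and 34.4 CPM in the double-deficient libraries in B cell progenitors. Double-deficient number 1 was the lowest of all 12 and numbers 2 and 3 the highest of all 12, so the groups overlapped. The log2 difference from WT was 0.73 ± 0.28 (SE, n = 3 against 3, 95% interval 0.11 to 1.35) with an adjusted p of 0.323 by edgeR. Without double-deficient number 1 it was 1.03 with an adjusted p of 0.0483 by edgeR, which passed. In CLPs Spred2 lay at 36.4, 25.6 and 26.8 CPM in the WT libraries, at 20.004, 36.9 and 20.9 CPM in the Plcg1-/- libraries, at 28.9, 28.4 and 20.3 CPM in the Plcg2-/- libraries and at 30.6, 44.9 and 55.9 CPM in the double-deficient libraries. There the log2 difference from WT was 0.55 ± 0.28 (SE, n = 3 against 3, 95% interval -0.07 to 1.17), with an adjusted p of 0.696 by edgeR. Without the 4 CLP libraries high in Flt3 it was 0.72 ± 0.30 (SE, adjusted p = 0.4295, edgeR).

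The 6 members that swung between libraries left wide intervals around their genotype differences in the fit without a term for replicate number. In double-deficient against WT B cell progenitors the log2 difference was -0.47 ± 0.84 (SE, n = 3 against 3, 95% interval -2.30 to 1.35) for Dusp1, and its interval allows a change of more than 1 log2 unit either way. For Dusp5 it was -0.61 ± 0.82 (SE, n = 3 against 3, 95% interval -2.39 to 1.17) and for Dusp6 -0.27 ± 0.45 (SE, n = 3 against 3, 95% interval -1.24 to 0.70). For Dusp2 it was -0.16 ± 0.61 (SE, n = 3 against 3, 95% interval -1.49 to 1.18), and for Dusp4 -0.96 ± 0.90 (SE, n = 3 against 3, 95% interval -2.91 to 0.99). For Spry1 it was -0.20 ± 0.77 (SE, n = 3 against 3, 95% interval -1.86 to 1.47). In CLPs the same comparison gave 0.00 ± 0.69 (SE, n = 3 against 3, 95% interval -1.50 to 1.51) for Dusp1. The values were -0.08 ± 0.88 (SE, n = 3 against 3, 95% interval -2.02 to 1.85) for Dusp5 and -0.01 ± 0.37 (SE, n = 3 against 3, 95% interval -0.83 to 0.81) for Dusp6. Without the 4 CLP libraries high in Flt3 the estimates were -0.36 for Dusp1, -0.47 for Dusp5, -0.35 for Dusp6, -0.45 for Dusp2, -0.68 for Dusp4 and -0.34 for Spry1 (SE 0.39 to 0.82). In that fit, of 8 libraries, 9 of the 10 genes were negative and none was called by edgeR (lowest adjusted p = 0.221). In B cell progenitors a log2 difference of -1.44, the estimate for Dusp10, lies within these intervals for Dusp1, Dusp2, Dusp4, Dusp5 and Spry1 and outside that for Dusp6. With the replicate number as a block, the estimates in B cell progenitors were -0.42 for Dusp1, -0.94 for Dusp5, -0.43 for Dusp6, -0.40 for Dusp2, -0.80 for Dusp4 and -0.29 for Spry1. Of these Dusp5 had the lowest adjusted p, 0.0522 by edgeR, and none was called.

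By edgeR, without a block, none of the 10 genes was called in any of the 17 comparisons made, 10 between genotypes, 4 between populations and 3 of genotype effects between populations. Of the 170 values of a gene in a comparison, 14 (8.24%) had an unadjusted p under 0.05 by edgeR, against 9.37% of the values of all genes in the same comparisons. The share was 13 of 100 between genotypes, against 7.86% of all values there, and these comparisons share libraries. DESeq2 called 4 of the 170, all of them Dusp10 (against 1.11%, 2.96%, 5.35% and 1.07% of genes in those comparisons). In double-deficient against WT, 1 member in CLPs (Dusp10) and 3 in B cell progenitors (Dusp10, Spry2 and Spred2) had such a p, as did 7.52% and 12.3% of all genes. In double-deficient against WT, the median log2 difference of the 10 genes was -0.23 in CLPs and -0.37 in B cell progenitors, with 8 and 9 of 10 negative, and the median of all genes tested was -0.03 and -0.02. In Plcg1-/- against WT the medians were -0.14 and -0.29, with 6 and 10 of 10 negative, and in Plcg2-/- against WT they were -0.29 and -0.12, with 9 and 6 of 10 negative. With 1 library left out, the double-deficient medians ran from -0.49 to 0.13 in CLPs and from -0.76 to -0.04 in B cell progenitors. Those of Plcg1-/- ran from -0.57 to 0.04 and from -0.75 to -0.10. Those of Plcg2-/- ran from -0.63 to -0.11 and from -0.53 to 0.26. Several members varied together, so the counts of negative genes are not of separate values. In double-deficient against Plcg1-/- and Plcg2-/-, edgeR called 0.0263% and 0.0526% of genes in CLPs and 0.213% and 0.153% in B cell progenitors. Against WT it called 0.00658% (Plcg1-/-, CLPs), 0.06% (Plcg1-/-, B cell progenitors), 0% (Plcg2-/-, CLPs) and 0.0467% (Plcg2-/-, B cell progenitors).

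**Figure D4:**
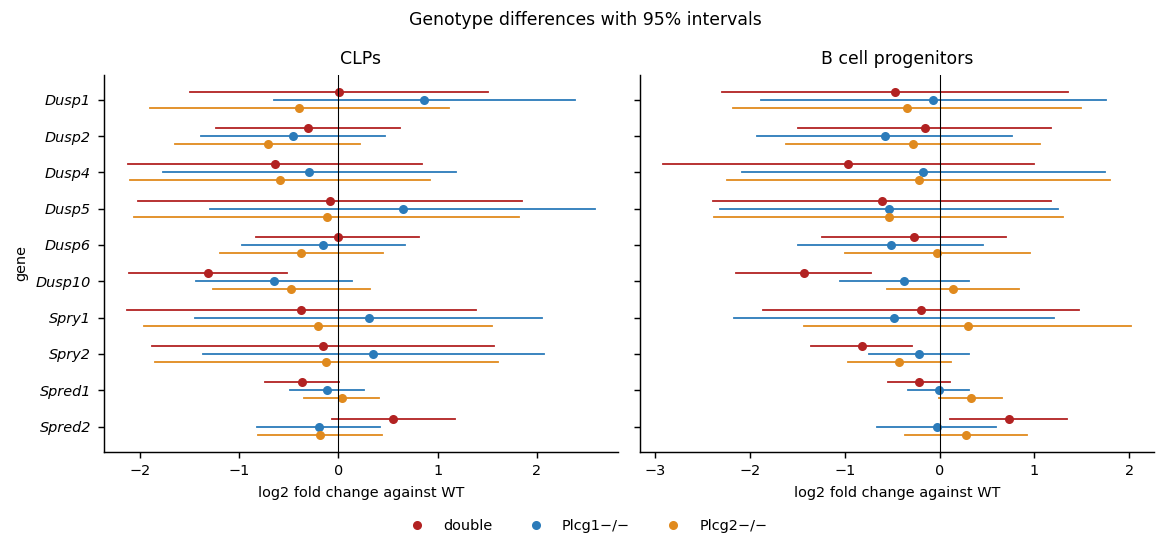
Log2 fold change against WT (points) with its 95% interval from edgeR (lines) for the 10 genes in double-deficient (red), Plcg1-/- (blue) and Plcg2-/- (orange) CLPs (left) and B cell progenitors (right), n = 3 per genotype. The interval of Dusp10 in double-deficient cells lies below 0 in both populations (-2.11 to -0.51 and -2.15 to -0.72), and those of Dusp1, Dusp4, Dusp5 and Spry1 span several log2 units.

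B cell progenitors and CLPs of one genotype were compared next, with the 24 libraries in one fit. None of the 10 genes was called in WT, Plcg1-/-, Plcg2-/- or double-deficient mice by edgeR or DESeq2. In that order edgeR called 3.5%, 3.78%, 3.21% and 3.24% of the 17212 genes tested, DESeq2 called 4.75%, 8.62%, 4.44% and 4.36%, and 1 of 40 values had an unadjusted p under 0.05, against 18.3% of the values of all genes. In WT the log2 difference of B cell progenitors from CLPs was -0.63 ± 0.83 (SE, n = 3 against 3, 95% interval -2.36 to 1.10) for Dusp1. It was -0.55 ± 0.62 (SE, n = 3 against 3, 95% interval -1.84 to 0.75) for Spry2 and 0.20 ± 0.44 (SE, n = 3 against 3, 95% interval -0.72 to 1.13) for Dusp6. Spred2 lay at 17.7 to 22.9 CPM in WT B cell progenitors and at 25.6 to 36.4 CPM in WT CLPs, without overlap (as 8.37% of genes), and its adjusted p was 0.377 by edgeR. These comparisons set libraries with different shares of reads on no gene against each other, and 8 of the 12 CLP libraries were close to B cell progenitors in Flt3. With the 16 libraries of the 8 other mice none of the 10 genes was called either, a setting chosen after seeing the data. The effect of a genotype was not called different between populations for any of the 10 genes by edgeR (0% of 17212 genes called; 0 of the 30 values had an unadjusted p under 0.05, against 1.92% of all) or by DESeq2.

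A further 8 members of these families, not all that exist, were examined in the same way. Dusp7, a cytosolic ERK phosphatase, lay at 36.2 to 57.8 CPM in CLPs and 28.8 to 45.6 CPM in B cell progenitors. Dusp3 and Dusp16 lay at 3.90 to 19.9 CPM, and Dusp8, Dusp9, Spry4 and Spred3 at medians of 1.05 to 4.42 CPM. Spry3 had 0 reads in all 24 libraries, which allows up to 3 reads per library by counting error. None of the 7 tested was called in any of the genotype comparisons by edgeR. Of 26 genes from Ras to ERK (Braf, Araf, Map2k1, Mapk3, Nf1 and others) all were tested and 0 were called in the 6 comparisons with WT, with medians of -0.05 to 0.14 on the log2 scale. Between populations, Mapk3 (ERK1) was lower in B cell progenitors than in CLPs of Plcg1-/- mice (-0.77, adjusted p = 0.0197, edgeR). In Plcg2-/- mice Araf, a Raf kinase, was lower (-0.57, adjusted p = 0.0194, edgeR). In these comparisons edgeR called 3.78% (Plcg1-/-) and 3.21% (Plcg2-/-) of all genes tested. None of 11 genes of the p38 and JNK cascades was called in any comparison with WT, with medians of -0.03 to 0.14.

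ERK response genes gave medians of 0.03, 0.66 and -0.12 in double-deficient, Plcg1-/- and Plcg2-/- CLPs against WT, and of -0.10, 0.23 and -0.05 in B cell progenitors, with 0 of 16 and 0 of 15 called by edgeR. Handling and stress genes gave -0.27, 0.72 and -0.18 in CLPs and -0.34, -0.06 and -0.19 in B cell progenitors, with 0 of 15 called.

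The genes most like each member over the 24 libraries were taken by Pearson's r of log2 CPM less the population mean among 17212 genes. Dusp1 was most like Zfp36 (r = 0.98) and Tnfaip3 (0.97), both inhibitors of inflammatory signalling, and Dusp5 was most like the same genes (Tnfaip3 0.96, Zfp36 0.96). Spry1 was most like Tnfaip3 (0.95) and Smad7 (0.95), Dusp2 most like Phlda1 (0.95) and Atf4 (0.95), Dusp6 most like Plk2 (0.95) and Tle4 (0.92), and Dusp4 most like Nfkbid (0.91) and Gadd45b (0.89). Spry2 was most like Zfp36l2 (0.93) and St14 (0.88). Dusp10 was most like Mturn (0.86) and Ier5l (0.86), Spred2 most like Zfp831 (0.91) and Rmnd5b (0.89), and Spred1 most like Basp1 (0.76) and Snord22 (0.75). Dusp1, Dusp5 and Spry1 shared named genes, and no gene named for any of the other members was named for another.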

How the data were processed

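RNA-seq libraries of CLPs and B cell progenitors from 4 genotypes with 3 mice each were analysed. Per the labels, total RNA was extracted with TRIzol LS, poly(A) RNA was selected, and a NEBNext Ultra kit was used for the libraries. The authors aligned reads to mm10 with STAR (version 2.5.0a in the submitters' processing notes) and deposited raw counts of reads per gene for 24421 gene symbols; the counting program is not given in the sources used here. The authors tested with DESeq2. The 2 rows that name no gene (unassigned and ambiguous reads) were left out of library sizes and tests; they held 17.9% to 87.3% and 0.110% to 1.44% of reads.

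The tests used edgeR 4.0.16 under R 4.3.3 (filterByExpr, TMM, glmQLFit, glmQLFTest, Benjamini-Hochberg over all genes tested), in one fit per population (15209 genes in CLPs, 15001 in B cell progenitors) and one of all 24 libraries (17212 genes) for comparisons between populations. Calls required an adjusted p no higher than 0.05 together with a log2 fold change of 0.5 or more in either direction. The term for replicate number was judged by the adjusted p alone. Standard errors come from the F statistic. Log2 CPM used a prior count of 2. Alternatives were RLE size factors, no filter, DESeq2 1.42.0, the replicate block, the compared groups alone, adjusted p alone and each library left out. The fit was tested on simulated counts. Lengths and promoters come from GRCm38 annotations, the build that mm10 names. Python 3.11.15 with matplotlib 3.10.9 drew the figures.

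The titles tie the CLP and the B cell progenitor library of a mouse together. Their deviations from the group means correlated at -0.35 to 0.53 (mean 0.11, 12 mice), and a mouse block changed no call of the 10 genes. Counts carry counting error, from 1 read worth 0.0301 to 0.676 CPM. All 10 genes were named with every library's value. From the other lists, genes called in a printed comparison were named, at most the 4 with the lowest adjusted p, and for each member the 2 genes most like it. Results for some listed genes are not reported here. The members and lists were chosen with earlier results of these data known.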

Additional observations from a re-analysis of the deposited data

How the results depend on the processing

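Over their alternatives, none of the 14 differences with an unadjusted p under 0.05 reversed, and 11 of 270 values were called. For Dusp10 in double-deficient against WT B cell progenitors the adjusted p ranged from 0.00274 (DESeq2) to 0.264 and 5 of 18 alternatives called it, among them the compared groups alone (0.0447) and the fits without Plcg2-/- number 1 (0.0363) or number 3 (0.0387); in CLPs it ranged from 0.0485 to 0.812. Spred2 was called (1.03, adjusted p = 0.0483) without double-deficient B cell progenitor number 1. The replicate numbers were not treated as pairing mice across genotypes, since the labels do not say what they mark and not every same-numbered pair correlated above 0.1: deviations correlated at a mean of 0.061 in B cell progenitors (8 of 18 pairs above 0.1) and 0.205 in CLPs (12 of 18). Among the 3 mutant genotypes the 9 CLP pairs ranged from 0.204 to 0.612 and the 9 of B cell progenitors from -0.032 to 0.658, and pairs with WT from -0.196 to 0.259 and -0.528 to 0.331. Such pairs cannot show that same-numbered mice had nothing in common. The term for replicate number called 802 genes in B cell progenitors. With the replicate block, Dusp10 (-1.46, adjusted p = 0.0132) and Spry2 (-0.80, 0.0373) were called in double-deficient against WT B cell progenitors and Dusp10 against Plcg2-/- (-1.58, 0.0447), and it called 50, 17 and 26 genes in double-deficient CLPs against WT, Plcg1-/- and Plcg2-/- and 550, 100 and 46 in B cell progenitors.

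In CLPs the main counts of called genes were 14, 1 and 0 (double-deficient, Plcg1-/-, Plcg2-/- against WT) and 4 and 8 (double-deficient against Plcg1-/- and Plcg2-/-), and in B cell progenitors 134, 9, 7, 32 and 23. DESeq2 gave 169, 16, 11, 96 and 104 in CLPs and 444, 29, 17, 802 and 161 in B cell progenitors. The compared groups alone gave 0, 0, 0 and 0 in CLPs where the count moved, and 238 (double-deficient against WT), 0 (Plcg2-/- against WT), 0 and 7 (double-deficient against Plcg1-/- and Plcg2-/-) in B cell progenitors. No filter gave 7 and 13 in double-deficient CLPs against Plcg1-/- and Plcg2-/-, and RLE gave 17 in double-deficient B cell progenitors against Plcg1-/-. The 8 CLP libraries lower in Flt3, chosen after seeing the data, gave 27, 0, 0 and 2 (double-deficient and Plcg1-/- against WT, double-deficient against Plcg1-/- and Plcg2-/-). Leaving out 1 library gave 0 to 44, 0 to 2, 0 to 1, 1 to 18 and 1 to 18 in CLPs and 50 to 184, 6 to 8, 0 to 7, 0 to 58 and 8 to 27 in B cell progenitors.

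Between populations the main counts were 602 (WT), 650 (Plcg1-/-), 552 (Plcg2-/-) and 557 (double-deficient). They were 344 (Plcg2-/-) with no filter, 1484 (Plcg1-/-) by DESeq2, 314, 222 and 177 (WT, Plcg1-/-, Plcg2-/-) with the compared groups alone, and 271, 248, 241 and 314 in the 8 mice whose CLPs were lower in Flt3. Leaving out 1 library gave 375 to 606, 316 to 1181, 282 to 457 and 352 to 540. The replicate number term, also added after seeing the data, called 215 (CLPs) and 802 (B cell progenitors), against 324 and 1217 with no filter and 1692 and 2159 by DESeq2's likelihood ratio test. The causes were not tested. RLE shifted the median of all genes by at most 0.019. Low counts limited Dusp4, with 4 to 151 reads per B cell progenitor library.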
